A study of Mus musculus with 16 samples.

Results

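Of the 24421 genes listed, 50 carry the symbol of a receptor for serotonin (Htr), acetylcholine (muscarinic Chrm and nicotinic Chrn), histamine (Hrh), orexin (Hcrtr) or noradrenaline (Adra and Adrb), and 48 of these had a read in at least 1 of 12 libraries. They were taken by symbol alone, with the Htra proteases left out, and no filter on change, or on level beyond a single read, was used. The members were chosen with earlier results of these data known. The 48 comprise 14 serotonin, 5 muscarinic, 14 nicotinic, 4 histamine, 2 orexin and 9 adrenergic receptor genes. Chrnd and Chrng, which encode subunits of the muscle nicotinic receptor, had 0 reads in all 12 libraries.

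The libraries were made from total RNA of somatosensory cortex of mice kept on a 12:12 light-dark cycle and collected at ZT4, 4 h after light onset. Wild-type (WT) mice were C57BL/6J (C57BL/6 in the labels), and AcPb-/- mice were homozygous for loss of AcPb, the neuronal isoform of the interleukin-1 receptor accessory protein encoded by Il1rap. Mice of both strains were 2 to 3 months old, were labelled male, and either stayed undisturbed (CTL) or underwent 8 h of sleep disruption (SD) by gentle handling from ZT20 to ZT4. Each of the 4 groups held 3 libraries: CTL-WT 01, 02 and 03, SD-WT 01, 02 and 04, CTL-AcPbKO 03, 04 and 05, and SD-AcPbKO 02, 03 and 04. The labels name no Cre driver or tissue for the loss of AcPb.

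The receptors receive the output of the ascending arousal systems. Serotonin from the raphe nuclei, noradrenaline from the locus coeruleus, acetylcholine from the basal forebrain, histamine from the tuberomammillary nucleus and orexin from the lateral hypothalamus are released at higher rates in waking than in non-REM sleep. Most of the receptors are coupled to G proteins: the Gq class activates phospholipase C, the Gi class inhibits adenylyl cyclase and the Gs class stimulates it. Nicotinic receptors and the serotonin receptor made of Htr3a and Htr3b are instead ion channels assembled from several subunits. The transmitters are made mostly by cells outside the cortex, which holds mainly the receptors and the enzymes and transporters that end the signal.

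Libraries held 26504840 to 71857505 reads on genes, and the 6 SD libraries were all deeper than the 6 control libraries. Of the control libraries, 4 (CTL-WT 02 and 03 and CTL-AcPbKO 04 and 05) held 25352 to 39358 reads of Xist, the RNA that silences an X chromosome in females, and at most 2 Y-linked reads, against the label of male mice. The other 8 libraries, including all 6 SD libraries, held at most 13 Xist reads. This imbalance moved with SD, and its part in the results was not tested beyond the fits given beside them. One had a term for these libraries, and one left them out, leaving 1 control per genotype. Both fits covered all 4 groups at once, normalized together, while each main SD fit covered 1 pair of groups. Adjusted p-values are therefore not like for like between them. The gene-level count of Il1rap (1480 to 2068 normalized counts) covers all isoforms and did not check the AcPb deletion. Markers of cortical excitatory neurons were present in every library, for example Slc17a7, the vesicular glutamate transporter, at 50324 to 76100 normalized counts. Nothing in the labels ties libraries to separate cages or litters, so p-values measure the spread between these libraries.

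Levels differed widely among the receptors. Mean normalized counts over the 12 libraries were at least 1000 for 10 genes, 100 to 1000 for 19, 10 to 100 for 13 and under 10 for 6. On the scale of normalized counts per kb of exon, Chrm1, the Gq-coupled muscarinic receptor of pyramidal neurons, was the most abundant at a mean of 1735 (1584 to 1997 over libraries), and its range did not overlap that of the next gene, Chrm4 (1216). Chrm4, the alpha-adrenergic receptor gene Adra1d (1157) and the histamine receptor gene Hrh3 (1095) overlapped each with the next. Below them stood Chrm3 (515), Adrb1 (463), Chrna4 (409.7) and Chrnb2 (387), again each overlapping the next. Htr5a (316) and Htr2a (258) led the serotonin receptors, and both orexin receptors were low, Hcrtr1 at 34.4 and Hcrtr2 at 14.0. The GENCODE model of Chrm4 is a single exon of 1440 bases, while the RefSeq start of the gene lies upstream of it, so its level per kb may be too high.

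**Figure D1:**
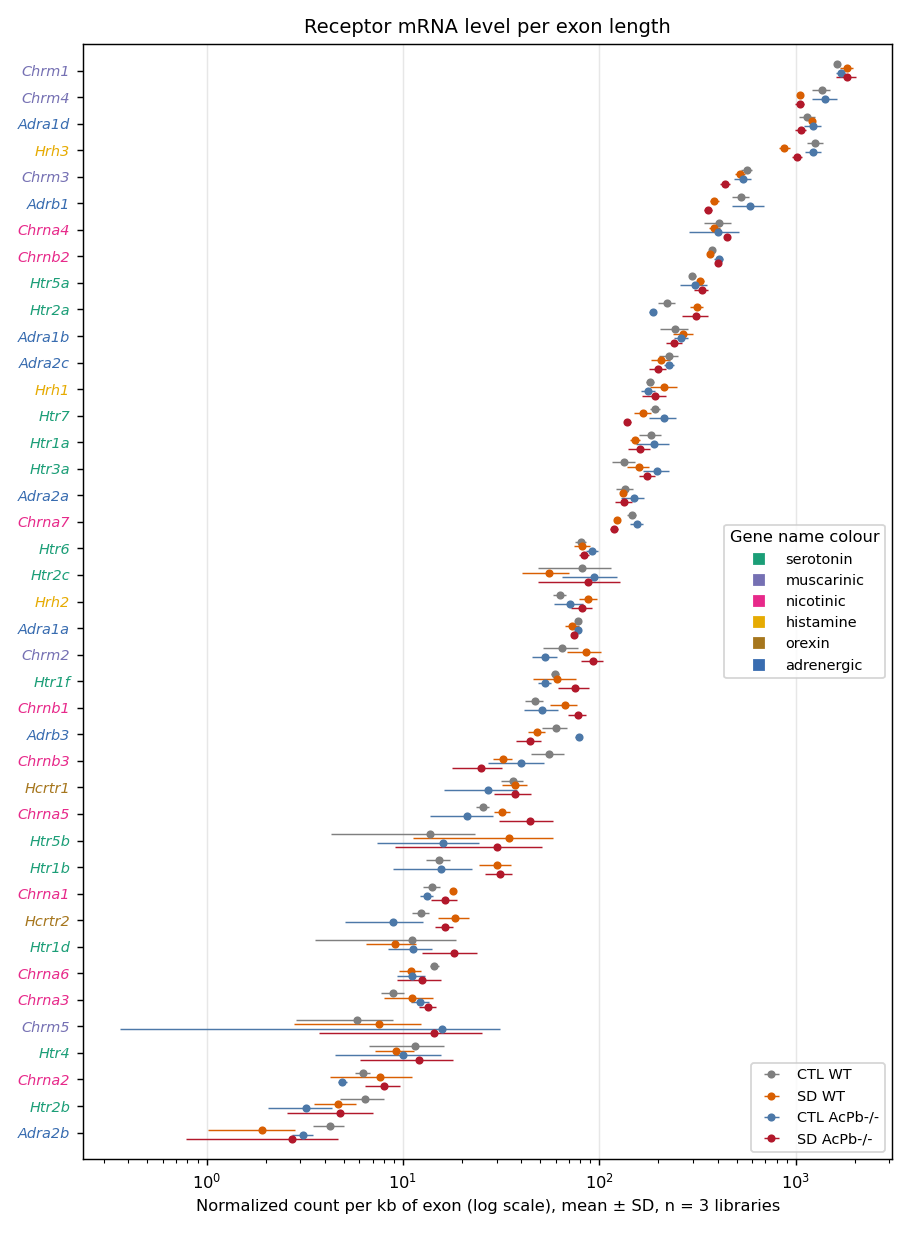
Level of receptor genes whose mean normalized count reached 10, as normalized counts per kb of exon on a log axis, with the mean and standard deviation of the 3 libraries in each of the 4 groups. Chrm1 stands at the top at about 1735 and Adra2b at the bottom, with Hcrtr1 (34.4) and Hcrtr2 (14.0) in the lower part.

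Between SD and undisturbed WT mice, 14 of 48 receptor genes (29.2%) passed the threshold of an adjusted p under 0.05 in limma, against 25.4% of all 20417 genes tested, and 6 were upregulated and 8 downregulated (background 13.2% and 12.2%). In AcPb-/- mice, 15 of 47 (31.9%) passed, against 27.4% of 20574 genes, with 7 upregulated and 8 downregulated (background 14.1% and 13.3%). With the Xist term the counts were 8 and 10, and without any 1 library 7 to 15 and 7 to 16. The fit without the Xist libraries leaves 1 control per genotype, so its counts are not set beside these. Over all genes, 19.3% and 24.7% passed with the Xist term. In the same fit of all 4 groups without the term, 24.3% and 30.9% passed. Without any 1 library, 13.3% to 30.7% of all genes passed in WT and 16.6% to 26.6% in AcPb-/- mice. In the main fits the shares lay near the background in both genotypes, and 9 of 47 receptors (19.1%) passed in the same direction in both, against 19.3% of 20013 genes. These were Htr2a, Htr1b, Hcrtr2 and Chrnb1, upregulated, and Adrb1, Hrh3, Chrm4, Chrna7 and Chrna10, downregulated. The fits of the 2 genotypes share no library but share the same imbalances. In each, 2 of 3 controls and 0 SD libraries were Xist libraries, and the SD libraries were all deeper than the controls. The part of these imbalances in the agreement was not tested. In all, 20 of 47 receptors (42.6%) passed in at least 1 genotype, against 34.7% of genes (6946 of 20013). For all 20 the log2 fold change had the same sign in both genotypes. Thus 20 of 47 receptors (42.6%) passed and kept their sign, against 33.9% of genes. Among the 6946 genes that passed in at least 1 genotype, 6794 kept their sign, so such agreement was not particular to receptors. Among genes with a mean of 100 or more, 9 of 29 receptors passed in WT (background 35.2%) and 12 of 29 in AcPb-/- mice (38.9%). At an unadjusted p under 0.05 there were 19 of 48 receptors in WT (37.3% of genes) and 18 of 47 in AcPb-/- mice (38.9%). The median log2 fold change over the receptors was -0.028 in WT and 0.051 in AcPb-/- mice, beside -0.0039 and 0.014 over all genes. The median absolute log2 fold change was 0.28 and 0.27, beside 0.24 and 0.27. In bulk tissue, fewer cells of a type and less RNA per cell cannot be told apart, and this holds for every difference below. Cell type markers changed with SD as well. Of 7 cortical excitatory neuron markers, 2 rose and 2 fell in WT mice, and 2 rose and 1 fell in AcPb-/- mice. In WT mice 4 of 9 interneuron markers rose, 4 of 9 endothelial and mural markers rose and 1 fell, and 4 of 7 meningeal, 5 of 7 oligodendrocyte, 2 of 7 astrocyte and 1 of 7 microglial markers fell. In AcPb-/- mice 1 interneuron marker rose and 1 fell, 3 endothelial and mural markers rose and 1 fell, and 1 meningeal, 1 oligodendrocyte, 1 astrocyte and 3 microglial markers fell. Their part in the receptor results was not tested.

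**Figure D2:**
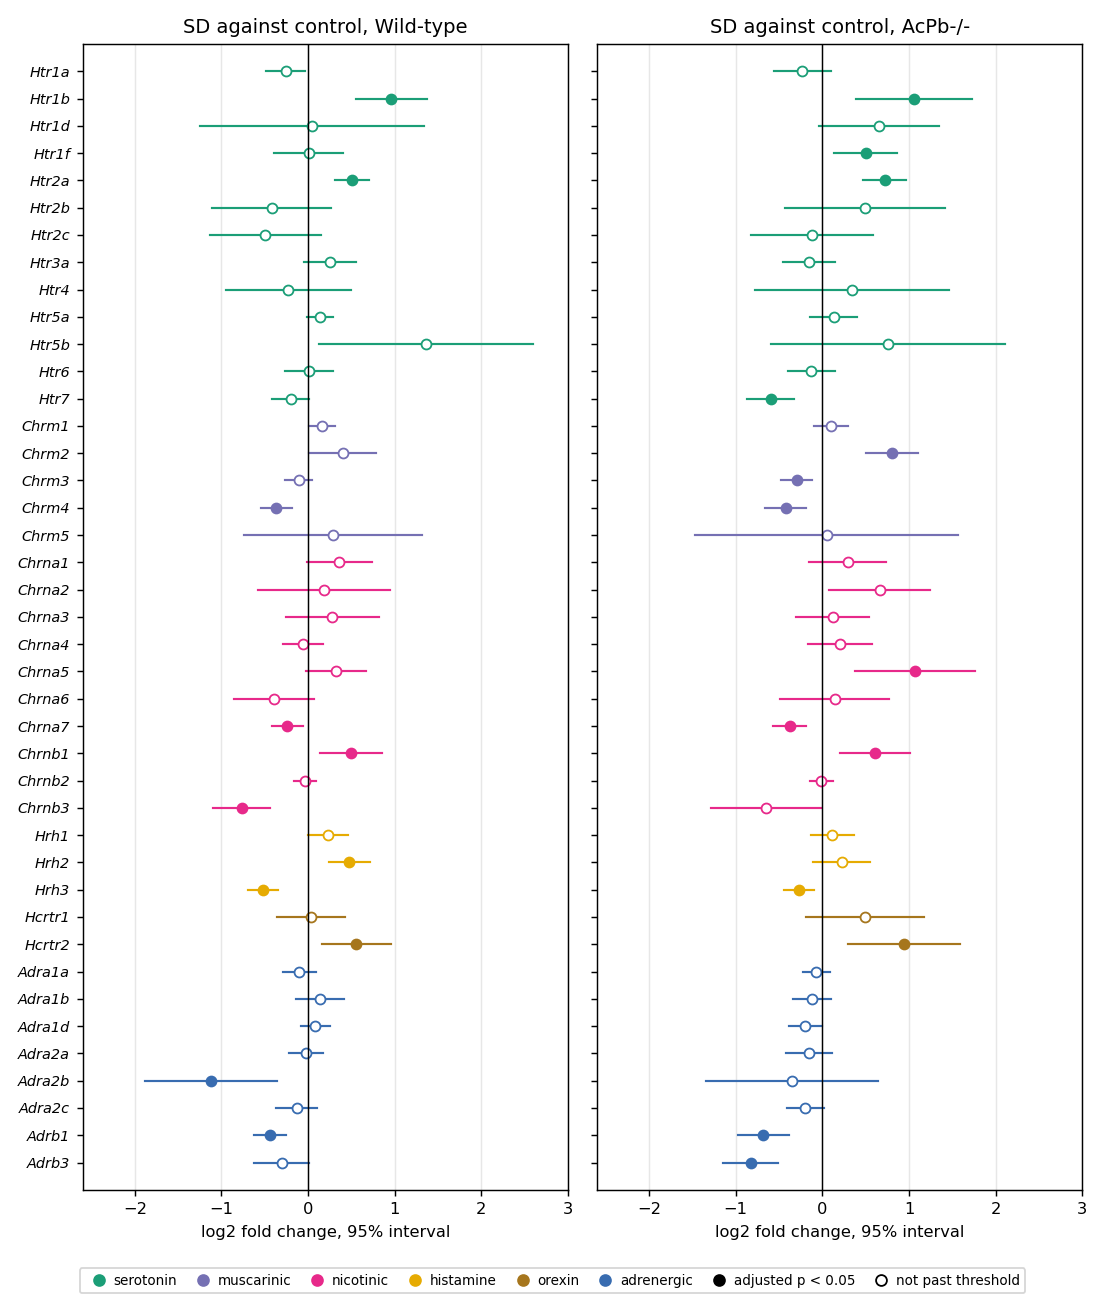
Log2 fold change of SD against undisturbed controls with its 95% interval for receptor genes whose mean normalized count reached 10, in WT (left) and AcPb-/- mice (right), coloured by family, with filled points for an adjusted p under 0.05 in limma. Htr2a, Htr1b, Hcrtr2 and Chrnb1 lie to the right of 0 and Adrb1, Hrh3, Chrm4 and Chrna7 to the left in both panels.

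The promoters of 4 of the 9 genes that passed in both genotypes are shown. Adrb1 and Htr2a were taken because their calls held in both genotypes without any 1 library. Chrnb1 and Hcrtr2 were taken as the upregulated genes with a match to a searched motif, so the 4 do not show how common a motif is. With 1 library left out, the Chrnb1 call held in 1 of 6 fits in WT and 2 of 6 in AcPb-/- mice. The Hcrtr2 call held in 0 of 6 and 1 of 6. Each sequence runs 5′ to 3′ from 250 bases before to 20 bases after the RefSeq start (GRCm38.p6). Capitals mark TGACG, the half-site bound by the cAMP-responsive factor CREB, on either strand, where the opposite strand reads as CGTCA.
Adrb1, plus strand, chr19:56721867-56722136: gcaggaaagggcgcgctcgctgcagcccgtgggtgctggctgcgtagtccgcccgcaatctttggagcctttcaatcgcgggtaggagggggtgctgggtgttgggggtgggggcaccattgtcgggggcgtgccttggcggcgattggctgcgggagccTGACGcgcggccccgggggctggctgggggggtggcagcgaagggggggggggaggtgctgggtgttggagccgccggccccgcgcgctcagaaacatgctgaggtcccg
Chrnb1, minus strand, chr11:69795918-69796187: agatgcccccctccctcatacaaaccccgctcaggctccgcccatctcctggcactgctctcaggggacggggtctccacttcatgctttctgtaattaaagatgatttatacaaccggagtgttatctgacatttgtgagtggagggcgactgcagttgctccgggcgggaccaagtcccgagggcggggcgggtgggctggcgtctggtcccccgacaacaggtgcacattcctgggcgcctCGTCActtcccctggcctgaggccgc
Hcrtr2, minus strand, chr9:76323604-76323873: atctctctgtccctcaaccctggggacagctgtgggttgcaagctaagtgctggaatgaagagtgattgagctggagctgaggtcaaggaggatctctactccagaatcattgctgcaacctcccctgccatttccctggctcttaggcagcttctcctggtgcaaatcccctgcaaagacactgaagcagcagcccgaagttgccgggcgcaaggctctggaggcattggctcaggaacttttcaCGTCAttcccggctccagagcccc
Htr2a, plus strand, chr14:74640624-74640893: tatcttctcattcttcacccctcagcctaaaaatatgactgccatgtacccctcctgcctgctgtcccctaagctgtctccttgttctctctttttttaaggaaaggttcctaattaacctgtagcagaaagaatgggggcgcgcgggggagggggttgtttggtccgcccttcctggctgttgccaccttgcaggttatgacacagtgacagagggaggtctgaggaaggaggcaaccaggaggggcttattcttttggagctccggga
The match began at position -90 from the start in Adrb1, at -6 in Chrnb1 and at -4 in Hcrtr2, and the window of Htr2a held none.

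RefSeq promoters, in windows of 250 bases before to 50 after the start, were matched for 37 of the 50 genes (47 windows). TGACG on either strand stood in 3 of the 9 genes that passed in both genotypes and in 14.9% of the receptor windows, against 20.8% of 32851 promoters of the mouse genome. The full palindrome TGACGTCA, which contains TGACG, stood in none of the receptor windows and in 1.79% of all promoters. CACGTG, the E-box bound by the clock factors CLOCK and BMAL1, stood in 1 of the 9, Chrna7, in 6.38% of the receptor windows and in 7.15% of all promoters. AGGTCA, a nuclear receptor half-site, stood in 1 of the 9, Hcrtr2, in 23.4% of the receptor windows and in 16.3% of all promoters. TGANTCA, the site of AP-1 factors, stood in none of the 9, in 10.6% of the receptor windows and in 7.81% of all promoters. The glucocorticoid response element stood in none of the 9, in none of the receptor windows and in 0.475% of all promoters. These matches describe the letters of the windows, not binding.

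Among serotonin receptors, Htr2a and Htr1b were upregulated by SD in both genotypes. Htr2a encodes the Gq-coupled receptor through which serotonin excites cortical pyramidal neurons. Its normalized counts were 1093, 1288 and 1327 in CTL-WT and 1621, 1880.0 and 1781 in SD-WT. They were 1040.0, 1015 and 1095 in CTL-AcPbKO and 1878, 1437 and 1899 in SD-AcPbKO. Every SD library lay above every control library of either genotype. The log2 fold change was 0.51 ± 0.089 (SE; limma adjusted p = 0.00307) in WT and 0.72 ± 0.11 (adjusted p = 0.00232) in AcPb-/- mice. Both calls held without any 1 library, with adjusted p at most 0.0204 and 0.018, and with the term for the Xist libraries (adjusted p = 0.0068 and 0.000905). Without the 4 Xist libraries the log2 fold changes were 0.68 and 0.73 (adjusted p = 0.0855 and 0.0559).

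Htr1b encodes a Gi-coupled receptor that sits on axon terminals and limits the release of serotonin and other transmitters. Its normalized counts were 63.5, 83.3 and 69.5 in CTL-WT and 138, 118 and 170.1 in SD-WT, and the groups did not overlap. In CTL-AcPbKO they were 109, 46.0 and 66.7 and in SD-AcPbKO 162, 121 and 158, where CTL-AcPbKO 03, the control without Xist reads, was the highest control and the groups again did not overlap. The log2 fold change was 0.96 ± 0.18 (limma adjusted p = 0.00461) in WT and 1.06 ± 0.29 (adjusted p = 0.0284) in AcPb-/- mice. In WT the call held without any 1 library. In AcPb-/- mice it was lost without CTL-AcPbKO 04 or 05 or SD-AcPbKO 02 or 04 (adjusted p 0.0636 to 0.117). Adjusted p was 0.122 and 0.0731 with the Xist term, and without the Xist libraries the log2 fold change was 1.13 in WT and 0.42 in AcPb-/- mice (adjusted p = 0.071 and 0.336). Of its exon bases, 18% overlap D430036J16Rik on the other strand, and that gene had log2 fold changes of 0.20 and 0.17 (adjusted p = 0.582 and 0.76).

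Htr7, a Gs-coupled receptor gene, passed in AcPb-/- mice, where all 3 SD libraries (479.9, 449 and 489) lay below all 3 controls (597, 822 and 752). The log2 difference there was -0.60 ± 0.12 (limma adjusted p = 0.0078), and the call held without any 1 library and with the Xist term (adjusted p = 0.0156) but not without the Xist libraries (-0.34, adjusted p = 0.139). WT counts were 687, 610.2 and 657 in controls and 604, 503 and 596 after SD, or -0.20 ± 0.095 on the log2 scale (adjusted p = 0.15), and again did not overlap. The difference of the 2 effects was -0.40 ± 0.16 with an unadjusted p of 0.0264 and an adjusted p of 0.986, so the effects were not shown to differ.

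Htr1f, a Gi-coupled receptor gene, was called in AcPb-/- mice at 148, 127 and 132 normalized counts in controls and 173, 234 and 174 after SD (0.50 ± 0.16, limma adjusted p = 0.0474). The 2 groups did not overlap, but the call was lost without any 1 library except CTL-AcPbKO 03 (adjusted p 0.0723 to 0.133) and with the Xist term (adjusted p = 0.164). WT counts were 149.8, 162 and 149 in controls and 119, 198 and 156 after SD, and these overlapped (0.0057 ± 0.18, adjusted p = 0.985; adjusted p of the interaction 0.986). Htr3b, the second subunit of the serotonin-gated channel, had 1.35, 3.33 and 0.74 normalized counts in SD-WT and 0 in each CTL-WT library. These were 7 and 0 reads. With a floor of 3 counts put in place of 0 over the CTL-WT group, the ratio was 1.38. This ratio leaves out the counting error of the 7 reads, so it is not a lower bound. The Htr3b call (limma adjusted p = 0.0485) held only without SD-WT 04 (adjusted p 0.0963 to 0.207 without each other library). It was lost in edgeR (adjusted p = 0.129) and with the Xist term (0.294). In CTL-AcPbKO it had 1.31, 0 and 0 normalized counts and in SD-AcPbKO 0, 0 and 2.13.

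The other 9 serotonin receptor genes passed in neither genotype. Htr5a, the serotonin receptor gene with the highest level per kb, had normalized counts of 1519, 1647 and 1632 in CTL-WT and 1823, 1784 and 1672 in SD-WT (0.14 ± 0.066, limma adjusted p = 0.156). These did not overlap, whereas the AcPb-/- groups did (0.13 ± 0.12, adjusted p = 0.466). Htr1a, the Gi-coupled somatodendritic receptor gene, had log2 fold changes of -0.26 ± 0.10 and -0.23 ± 0.14 (adjusted p = 0.0881 and 0.278). For Htr3a, which marks interneurons of superficial layers, they were 0.25 ± 0.14 and -0.15 ± 0.13 (adjusted p = 0.213 and 0.438), and for Htr6, a Gs-coupled receptor gene, 0.014 ± 0.13 and -0.13 ± 0.12 (adjusted p = 0.945 and 0.477). Htr1d, Htr2b, Htr4 and Htr5b had means of 10.2 to 52.5 and wide intervals, as for Htr5b in WT (1.36 ± 0.55, 95% interval 0.13 to 2.59, adjusted p = 0.101). Psmd1, on the other strand, overlaps 11.8% of the Htr2b exon bases.

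Htr2c, a Gq-coupled receptor gene with its highest expression in the choroid plexus, had normalized counts of 619, 598 and 1243 in SD-AcPbKO. The highest of these, SD-AcPbKO 04, was also the library with choroid plexus markers. There Ttr, the main product of the choroid plexus, stood at 16231 normalized counts, against 10.6 to 284 in the other 11 libraries, and the summed level of the 8 choroid markers at 18503, against 367 to 688. The share of Htr2c in that library that came from choroid plexus was not tested. The counts were 861, 1006 and 416 in CTL-WT, 495, 390.3 and 665 in SD-WT and 1082, 967 and 568 in CTL-AcPbKO, spanning more than 1.5 times within every group. Log2 fold changes were -0.50 ± 0.29 in WT and -0.12 ± 0.31 in AcPb-/- mice (limma adjusted p = 0.244 and 0.805).

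**Figure D3:**
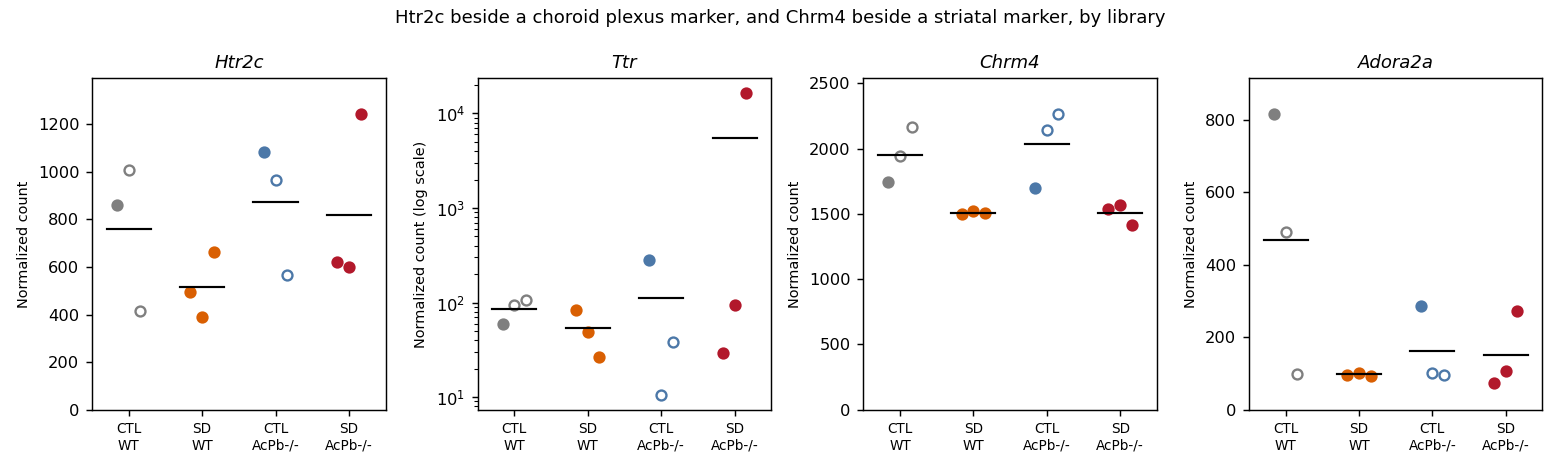
Normalized counts by library of Htr2c, of the choroid plexus marker Ttr (log axis), of Chrm4 and of the striatal marker Adora2a in the 4 groups, with open points for the libraries with Xist reads and lines for group means. The one SD-AcPbKO library with Ttr at 16231 is the highest for Htr2c, and the CTL-WT library with the most Adora2a is the lowest WT control for Chrm4.

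Of the muscarinic receptors, Chrm4 was downregulated by SD in both genotypes. It encodes a Gi-coupled receptor that also acts as an autoreceptor on cholinergic terminals. Normalized counts were 1748, 1945 and 2167 in CTL-WT and 1503, 1519.6 and 1505 in SD-WT, and 1701, 2144 and 2266 in CTL-AcPbKO and 1538, 1565 and 1412 in SD-AcPbKO. The SD libraries lay below the controls in both genotypes, and CTL-WT 01 and CTL-AcPbKO 03, the controls without Xist reads, were the lowest of their groups. Log2 fold changes were -0.37 ± 0.08 (limma adjusted p = 0.00848) in WT and -0.42 ± 0.11 (adjusted p = 0.0189) in AcPb-/- mice. The WT call held without any 1 library, and the AcPb-/- call was lost without CTL-AcPbKO 04 or 05 or SD-AcPbKO 02 or 04 (adjusted p 0.0582 to 0.0771). With the Xist term the log2 fold changes were -0.16 and -0.22 (adjusted p = 0.153 and 0.048), and without the Xist libraries -0.21 and -0.18 (adjusted p = 0.142 and 0.167).

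Chrm4 is also high in striatal neurons, so striatal markers are given beside it. The summed level of the 12 striatal markers was 26607 in CTL-WT 01 and 12765 to 23742 in the other libraries, and Adora2a, an adenosine receptor gene of striatal neurons, was 816, 490.1 and 99.7 in CTL-WT and 96.0, 102 and 94.3 in SD-WT. In CTL-WT, Chrm4 was thus lowest where the striatal markers were highest. Of the 12 striatal markers, 3 were downregulated in WT (median log2 fold change -0.47) and 0 passed in AcPb-/- mice (median 0.41), and their part in the Chrm4 results was not tested.

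Chrm2 encodes another Gi-coupled muscarinic receptor, found on cholinergic terminals and interneurons. AcPb-/- normalized counts were 374, 290.4 and 299 in controls and 636, 544 and 499 after SD, without overlap (0.80 ± 0.13, limma adjusted p = 0.00332). This call held without any 1 library and with the Xist term (adjusted p = 0.042) but not without the Xist libraries (0.57, adjusted p = 0.165). WT counts were 449, 299 and 428 in controls and 508, 622 and 420.3 after SD and overlapped through SD-WT 04 (0.40 ± 0.17, adjusted p = 0.12). Without SD-WT 04 the WT adjusted p was 0.041. The effects were not shown to differ between genotypes (difference 0.40 ± 0.25, adjusted p = 0.986). The lincRNA gene 9330158H04Rik, which overlaps 2.35% of the Chrm2 exon bases on the other strand, had a log2 fold change of 1.11 in AcPb-/- mice (adjusted p = 0.0109).

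Chrm3, a Gq-coupled receptor gene, had normalized counts of 3169.8, 3734 and 3198 in CTL-AcPbKO and 2899.5, 2666 and 2619 in SD-AcPbKO. These did not overlap, and the log2 fold change was -0.30 ± 0.079 (limma adjusted p = 0.0233). The call was lost without CTL-AcPbKO 04 or SD-AcPbKO 03 or 04 (adjusted p 0.0577 to 0.0854), with the Xist term (adjusted p = 0.0719) and without the Xist libraries (0.171). In WT mice the counts were 3434, 3325 and 3787 in controls and 3389, 3363 and 3046 after SD, with overlap (-0.11 ± 0.07, adjusted p = 0.308). Chrm1 passed in neither genotype, with counts of 10299.9, 10924 and 10278 in CTL-WT and 12741, 11606 and 10946 in SD-WT (0.16 ± 0.068, adjusted p = 0.112). Its log2 fold change in AcPb-/- mice was 0.099 ± 0.088 (95% interval -0.10 to 0.30, adjusted p = 0.458). Chrm5, the least abundant muscarinic receptor gene, ranged from 5.1 to 53.6 normalized counts and passed in neither genotype.

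Nicotinic receptor subunits moved in different directions. Chrna7, which forms homomeric receptors with high calcium permeability, was downregulated in both genotypes. Its normalized counts were 627, 649.7 and 697 in CTL-WT and 564, 541 and 566 in SD-WT, and 746, 714 and 643 in CTL-AcPbKO and 513, 560.4 and 537 in SD-AcPbKO. All 6 SD libraries lay below all 6 controls. The log2 fold change was -0.24 ± 0.08 (limma adjusted p = 0.0494) in WT, where the call held only without SD-WT 04 (adjusted p 0.0512 to 0.153 without each other library). For AcPb-/- mice it was -0.38 ± 0.086 (adjusted p = 0.0128), lost without CTL-AcPbKO 04 (0.0535) or SD-AcPbKO 02 (0.0521). With the Xist term, adjusted p was 0.0829 and 0.0099. Without the Xist libraries the log2 fold changes were -0.17 and -0.47 (adjusted p = 0.245 and 0.0275), and the latter was the only receptor call left in that fit.

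Chrnb1, a subunit known from the muscle receptor, was upregulated in both genotypes. Normalized counts were 104, 127 and 124 in CTL-WT and 192, 175 and 139.6 in SD-WT, and 135, 152 and 102 in CTL-AcPbKO and 203, 212 and 174 in SD-AcPbKO, without overlap in either genotype. Log2 fold changes were 0.50 ± 0.16 and 0.61 ± 0.18 (limma adjusted p = 0.044 and 0.0333). The WT call held only without SD-WT 04 (adjusted p 0.0647 to 0.174 without each other library), and the AcPb-/- call only without CTL-AcPbKO 03 or 04 (adjusted p 0.0526 to 0.114 without each other library). Adjusted p was 0.0922 and 0.0413 with the Xist term, and without the Xist libraries 0.12 and 0.162. The other subunits that define the muscle receptor were absent or near 0, with Chrnd and Chrng at 0 reads and Chrne at 0 to 6 reads per library, while Chrna1 had a mean of 67.7 normalized counts. Summed skeletal muscle markers were 661 to 704 in CTL-WT and 791 to 821 in SD-WT, and 692 to 790 in CTL-AcPbKO and 664 to 721 in SD-AcPbKO, so that the groups overlapped in AcPb-/- mice and did not in WT. Most of the sum was Acta1, at a mean of 519 in CTL-WT and 647 in SD-WT. Of the 6 muscle markers only Acta1 passed in WT (log2 fold change 0.32, limma adjusted p = 0.0137), and 0 passed in AcPb-/- mice. The part of muscle RNA in the Chrnb1 levels was not tested.

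Chrna5, an accessory subunit of heteromeric receptors in deep cortical layers, passed in AcPb-/- mice. Counts were 91.6, 62.0 and 45.4 in controls and 96.3, 138 and 183 after SD, with CTL-AcPbKO 03 just below the lowest SD library. Its log2 fold change was 1.07 ± 0.30 (limma adjusted p = 0.0311), lost without CTL-AcPbKO 04 or 05 or SD-AcPbKO 03 or 04 (adjusted p 0.0765 to 0.11) and with the Xist term (0.0714). Without the Xist libraries it was 0.55 (adjusted p = 0.335). In WT mice the counts were 86.3, 77.7 and 75.1 and 94.6, 94.9 and 111, also without overlap (0.32 ± 0.16, adjusted p = 0.167), and the difference of effects was 0.75 ± 0.36 (adjusted p = 0.986).

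Chrnb3, an accessory subunit best known from midbrain dopamine neurons, passed in WT mice at 315, 316 and 431 normalized counts in controls and 214, 181 and 225 after SD. All SD-WT libraries lay below all WT controls (-0.77 ± 0.15, limma adjusted p = 0.0048), and the call held without any 1 library. With the Xist term the log2 fold change was -0.39 (adjusted p = 0.308), and without the Xist libraries -0.61 (adjusted p = 0.273). AcPb-/- counts were 161, 303 and 297 in controls and 208, 119 and 147 after SD and overlapped through CTL-AcPbKO 03, the control without Xist reads (-0.65 ± 0.28, adjusted p = 0.119). The AcPb-/- adjusted p was 0.0155 without CTL-AcPbKO 03, while without the Xist libraries the log2 fold change was -0.062.

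Chrna10 and Chrnb4 passed on few reads. Chrna10 had 12.7, 16.9 and 4.48 normalized counts in CTL-WT and 0, 0.83 and 0.74 in SD-WT, or 26 and 2 reads over the 3 libraries, a ratio of 0.0456 with a counting interval of 0.00525 to 0.182. In CTL-AcPbKO it had 13.1, 14.2 and 7.09 normalized counts and in SD-AcPbKO 1.55, 0.66 and 5.69, or 23 and 11 reads, a ratio of 0.231 (0.102 to 0.493). Both groups of SD libraries lay below their controls, with limma adjusted p of 0.00275 and 0.0266. The WT call held without any 1 library and the AcPb-/- call only without CTL-AcPbKO 05 or SD-AcPbKO 04 (adjusted p 0.059 to 0.104 without each other library). With the Xist term, adjusted p was 0.00766 and 0.0297. Of its exon bases, 39% overlap Art1 on the other strand, and Art1 itself had a mean of 1.34 normalized counts. Chrnb4 had 7.62, 2.82 and 5.60 normalized counts in CTL-WT and 1.35, 0.83 and 1.49 in SD-WT, or 13 and 5 reads, a ratio of 0.228 (0.0637 to 0.682; limma adjusted p = 0.0262). This call was lost without CTL-WT 01 or 03 or SD-WT 01 or 02 (adjusted p 0.0712 to 0.0961) and without the Xist libraries (0.172) but held with the Xist term (0.0363), and AcPb-/- counts were 10.5, 8.85 and 5.68 in controls and 3.11, 16.4 and 6.40 after SD (adjusted p = 0.838).

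The subunits of the main heteromeric receptor of the cortex, Chrna4 and Chrnb2, passed in neither genotype. Chrnb2 had log2 fold changes of -0.033 ± 0.057 (95% interval -0.16 to 0.094) in WT and -0.012 ± 0.057 (-0.14 to 0.12) in AcPb-/- mice. These were the narrowest intervals among the nicotinic subunits. Adar, on the other strand, overlaps 16.3% of the Chrnb2 exon bases and had a mean of 12205 normalized counts. Its log2 fold changes were -0.041 in WT and -0.039 in AcPb-/- mice. The part of Adar reads in the Chrnb2 counts was not tested. Chrna4 had log2 fold changes of -0.061 ± 0.10 and 0.20 ± 0.16 (limma adjusted p = 0.707 and 0.408). Its counts in CTL-AcPbKO were 2678, 1698 and 1660.1, with CTL-AcPbKO 03 far above the other 2 controls. Chrna1, Chrna2, Chrna3 and Chrna6 had means of 25.4 to 67.7 normalized counts and passed in neither genotype, and Chrna9 had at most 1 read per library.

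Histamine receptor genes changed in both directions in WT mice. Hrh3 encodes the Gi-coupled autoreceptor and heteroreceptor that limits the release of histamine and other transmitters, and it was downregulated in both genotypes. Normalized counts were 3611, 4367 and 3879 in CTL-WT and 2835, 2875 and 2546 in SD-WT, and 4075, 3472 and 4071 in CTL-AcPbKO and 3009, 3359 and 3229.9 in SD-AcPbKO. The groups did not overlap in either genotype. The log2 fold change was -0.52 ± 0.08 in WT (limma adjusted p = 0.00175), and the call held without any 1 library and with the Xist term (adjusted p = 0.00735). In AcPb-/- mice it was -0.27 ± 0.078 (adjusted p = 0.0325), lost without CTL-AcPbKO 03 or 05 or SD-AcPbKO 02 or 04 (adjusted p 0.0773 to 0.119) and with the Xist term (0.106). Without the Xist libraries the log2 fold changes were -0.39 and -0.35 (adjusted p = 0.0776 and 0.0725). The antisense gene Gm17180 overlaps 11.1% of the Hrh3 exon bases.

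Hrh2, the Gs-coupled histamine receptor gene, passed in WT mice, with 382, 342 and 398 normalized counts in controls and 518, 578 and 468 after SD. The groups did not overlap (0.48 ± 0.11, limma adjusted p = 0.00987). The adjusted p was 0.0518 without CTL-WT 02, 0.0517 without SD-WT 02, 0.0181 with the Xist term and 0.179 without the Xist libraries. AcPb-/- counts were 339, 455 and 463 in controls and 537, 500.0 and 422 after SD and overlapped (0.23 ± 0.14, adjusted p = 0.296). The difference between genotypes was -0.25 ± 0.19 (adjusted p = 0.986). Hrh1, the Gq-coupled receptor gene targeted by sedating antihistamines, had log2 fold changes of 0.23 ± 0.10 and 0.11 ± 0.11 (adjusted p = 0.131 and 0.495), with no overlap between the WT groups. Hrh4 had at most 2 reads in a library.

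Hcrtr2, the orexin receptor gene whose loss causes narcolepsy in dogs, was upregulated in both genotypes. Normalized counts were 68.5, 76.3 and 84.1 in CTL-WT and 96.0, 136 and 108 in SD-WT, without overlap. In CTL-AcPbKO they were 81.1, 46.0 and 36.9 and in SD-AcPbKO 109, 88.6 and 104, where CTL-AcPbKO 03 came close to the lowest SD library. The log2 fold changes were 0.55 ± 0.18 and 0.94 ± 0.28 (limma adjusted p = 0.0447 and 0.0391). The WT call was lost without any 1 library (adjusted p 0.0511 to 0.181), and the AcPb-/- call held only without CTL-AcPbKO 03 (adjusted p 0.061 to 0.138 without each other library). Adjusted p was 0.508 and 0.102 with the Xist term, and without the Xist libraries the log2 fold changes were 0.70 and 0.30 (adjusted p = 0.135 and 0.439). Thinned to the smallest library, adjusted p was 0.0852 and 0.127. Hcrtr1, the other orexin receptor gene, had normalized counts of 45.4 to 118 over the 12 libraries and log2 fold changes of 0.037 ± 0.18 and 0.50 ± 0.30 (adjusted p = 0.899 and 0.263).

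Adrb1, the Gs-coupled beta-adrenergic receptor gene of cortical neurons, was downregulated in both genotypes. Normalized counts were 1577, 1821 and 1926 in CTL-WT and 1312, 1367 and 1233 in SD-WT, and 1550.3, 2146 and 2225 in CTL-AcPbKO and 1262, 1228 and 1152 in SD-AcPbKO. All 6 SD libraries lay below all 6 controls, and the 2 controls without Xist reads were the lowest of their groups. The log2 fold change was -0.44 ± 0.084 (limma adjusted p = 0.00452) in WT and -0.68 ± 0.13 (adjusted p = 0.0058) in AcPb-/- mice, and both calls held without any 1 library. With the Xist term the log2 fold changes were -0.19 and -0.44 (adjusted p = 0.123 and 0.00263), and without the Xist libraries -0.27 and -0.35 (adjusted p = 0.115 and 0.0545).

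Adrb3, another beta-adrenergic receptor gene, best known from fat, passed in AcPb-/- mice. Its normalized counts were 259, 276 and 258 in controls and 165, 125 and 159 after SD, without overlap (-0.83 ± 0.14, limma adjusted p = 0.00377). The call held without any 1 library and with the Xist term (adjusted p = 0.00255), and without the Xist libraries the log2 fold change was -0.80 (adjusted p = 0.0607). WT counts were 232, 201 and 174 in controls and 182, 151 and 156 after SD and overlapped (-0.31 ± 0.14, adjusted p = 0.152). The difference between genotypes was -0.52 ± 0.20, with an unadjusted p of 0.022 and an adjusted p of 0.986. An antisense gene, Gm45470, overlaps 24.9% of the Adrb3 exon bases.

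Adra2b, a Gi-coupled receptor gene, had 20.3, 14.1 and 16.8 normalized counts in CTL-WT and 5.41, 5.83 and 11.9 in SD-WT, or 41 and 31 reads in libraries of unequal depth, a ratio of 0.448 (counting interval 0.272 to 0.732). The WT groups did not overlap (-1.12 ± 0.34, limma adjusted p = 0.0365), but the call held only without SD-WT 04 (adjusted p 0.0667 to 0.134 without each other library). Adjusted p was 0.118 with the Xist term, and AcPb-/- mice had 11.8, 14.2 and 11.4 in controls and 6.99, 5.91 and 19.9 after SD (adjusted p = 0.604). The other alpha-adrenergic receptor genes passed in neither genotype. In WT and AcPb-/- mice, log2 fold changes were -0.10 ± 0.087 and -0.07 ± 0.07 for Adra1a, 0.14 ± 0.12 and -0.12 ± 0.095 for Adra1b and 0.084 ± 0.074 and -0.20 ± 0.085 for Adra1d, all Gq-coupled. Adra2c, a Gi-coupled receptor gene, gave -0.13 ± 0.11 and -0.20 ± 0.092. For Adra2a, the Gi-coupled receptor gene through which noradrenaline and sedatives such as dexmedetomidine act, the log2 fold change was -0.023 ± 0.088 (95% interval -0.22 to 0.17) in WT and -0.16 ± 0.12 (-0.42 to 0.11) in AcPb-/- mice.

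**Figure D4:**
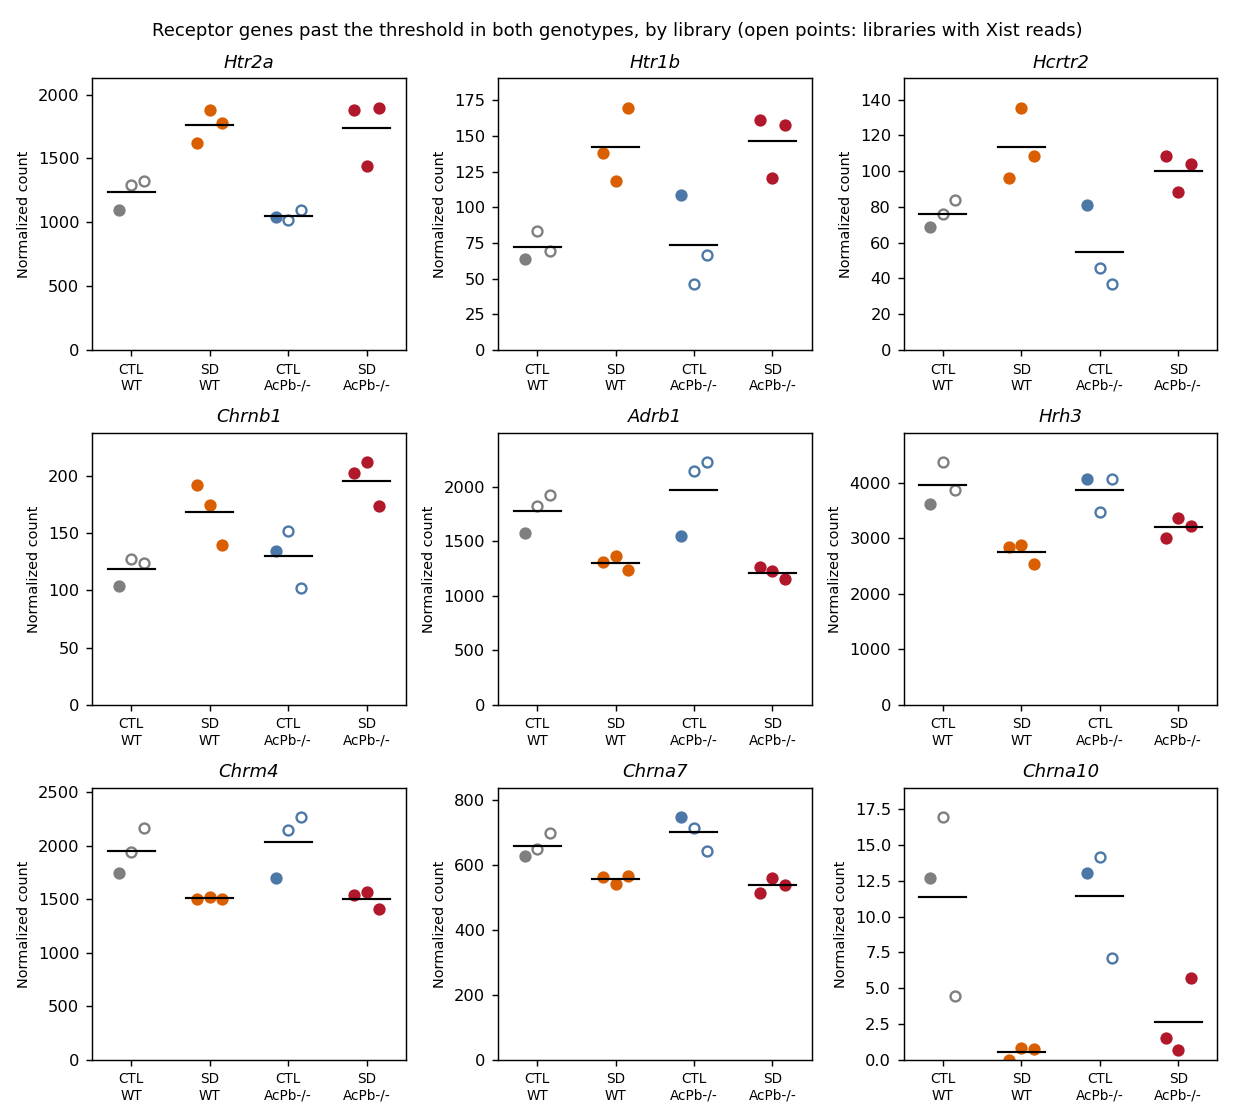
Normalized counts by library of the 9 receptor genes that passed the threshold in both genotypes, in CTL-WT, SD-WT, CTL-AcPbKO and SD-AcPbKO, with open points for the 4 control libraries with Xist reads and lines for group means. In each genotype the SD libraries lie on one side of the controls, as for Htr2a, at 1437 to 1899 after SD against 1015 to 1327 in controls.

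Groups did not overlap for 21 of 48 receptors in WT mice, against 40.2% of all genes, and for 17 of 47 in AcPb-/- mice, against 42.3%. The direction of change was the same in both genotypes for 38 of 47 receptors (80.9%), against 79.6% of all genes.

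The receptors were also compared between genotypes. Between CTL-AcPbKO and CTL-WT, 0 of 48 receptors passed in limma, and 0 in edgeR or DESeq2, while 4 had an unadjusted p under 0.05 (8.33%, against 8.53% of all genes). At an adjusted p, 0.0197% of all genes passed. The 4 were Htr3a (0.55 ± 0.14, adjusted p = 0.373), Adrb3 (0.39 ± 0.13, 0.465), Htr2a (-0.23 ± 0.082, 0.487) and Htr2b (-0.90 ± 0.36, 0.549), each given as the log2 fold change of AcPb-/- over WT with its SE and adjusted p. Htr3a counts were 317, 281 and 239.8 in CTL-WT and 343, 464 and 426 in CTL-AcPbKO, without overlap. Groups did not overlap for 9 of 48 receptors, against 14.4% of genes.

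Between SD-AcPbKO and SD-WT, 0 of 48 receptors passed by any of the 3 tools, against 0.0145% of all genes in limma. At an unadjusted p under 0.05 there were 8 (16.7%, against 6.13% of all genes): Chrm3, Adra1d and Htr7, lower in AcPb-/- mice, and Hrh3, Chrna4, Chrnb2, Chrnb4 and Htr1d, higher. Chrm3 had 3389, 3363 and 3046 normalized counts in SD-WT and 2899.5, 2666 and 2619 in SD-AcPbKO, without overlap (-0.26 ± 0.069, adjusted p = 0.488). Hrh3 had 2835, 2875 and 2546 and 3009, 3359 and 3229.9, also without overlap (0.22 ± 0.072, adjusted p = 0.692). Groups did not overlap for 8 of 48 receptors, against 11.4% of genes. The SD effect itself differed between genotypes for 0 of 48 receptors in limma, edgeR or DESeq2, and for 3 at an unadjusted p under 0.05 (6.25%, against 4.0% of all genes): Adrb3, Htr7 and Adra1d, the last with a difference of -0.28 ± 0.12 (adjusted p = 0.986). These comparisons share libraries with the SD comparisons.

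The genes that couple receptors to their effectors, and those that assemble receptors or end the signal, are described by lists, against the 25.4% of all genes that passed in WT (13.2% higher, 12.2% lower) and 27.4% in AcPb-/- mice (14.1% and 13.3%). Of 13 G protein alpha subunits, 1 rose and 1 fell in WT mice, and 1 rose and 2 fell in AcPb-/- mice, both shares below those of all genes. Gnai1, an inhibitory alpha subunit, had 9628, 9596 and 10358 normalized counts in CTL-WT and 6026, 6373 and 7759.6 in SD-WT, and 8951, 9280.0 and 8614 in CTL-AcPbKO and 6150.0, 6099.6 and 6449.8 in SD-AcPbKO. It fell without overlap in both genotypes (log2 fold change -0.56 ± 0.089 and -0.52 ± 0.056, limma adjusted p = 0.002 and 0.000854). Gnaq, the Gq subunit itself, rose in WT (0.30 ± 0.069, adjusted p = 0.0105) and gave 0.26 ± 0.086 in AcPb-/- mice (adjusted p = 0.0533). Gnal, an alpha subunit that stimulates adenylyl cyclase, rose in AcPb-/- mice (0.35 ± 0.054, adjusted p = 0.00263) and Gna11, a Gq-class subunit, fell (-0.30 ± 0.054, adjusted p = 0.0048).

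Of 9 adenylyl cyclases, 1 rose and 2 fell in WT mice (25.4% of all genes passed), and 1 rose and 1 fell in AcPb-/- mice (27.4%). Adcy9 rose in both (0.39 and 0.26) and Adcy8 fell in both (-0.34 and -0.32), while Adcy5, the striatal isoform, fell in WT (-0.53; limma adjusted p = 0.0128), with CTL-WT 01 at 9292 normalized counts, where the striatal markers were highest. Of 4 phospholipase C beta genes, Plcb2 rose in both genotypes. Its normalized counts were 251, 233 and 228 in CTL-WT and 379, 396 and 375 in SD-WT, and 243, 209 and 192 in CTL-AcPbKO and 349, 272 and 332 in SD-AcPbKO (0.69 ± 0.098 and 0.56 ± 0.14, adjusted p = 0.00124 and 0.0189). Among 7 receptor kinases and arrestins, which switch off coupled receptors, 0 passed in WT. In AcPb-/- mice Grk5 and Grk4 rose (0.50 and 0.48) and Grk6 fell (-0.30).

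Of 8 proteins that assemble with nicotinic receptors or tune them, 2 rose and 2 fell in WT mice (25.4% of all genes passed), and 2 rose and 1 fell in AcPb-/- mice (27.4%). Nrn1, a small membrane-anchored protein that binds nicotinic receptors, had 10594, 11173 and 12652 normalized counts in CTL-WT and 14689.7, 16477 and 18132 in SD-WT, and 9660.0, 11440.1 and 12049 in CTL-AcPbKO and 17387, 14201 and 15627 in SD-AcPbKO. It rose without overlap in both (0.52 ± 0.09 and 0.51 ± 0.10, limma adjusted p = 0.00315 and 0.00706), as did Rer1, which retains unassembled subunits in the secretory pathway (0.21 and 0.31). Lypd6 fell in both (-0.39 and -0.28) and Lypd1 in WT (-1.07, adjusted p = 0.0207).

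Of 21 genes of transmitter synthesis, uptake and breakdown, 5 fell and 0 rose in WT mice, and 4 fell and 1 rose in AcPb-/- mice, near the 25.4% and 27.4% of all genes that passed (12.2% and 13.3% lower). The median log2 fold change of the list was -0.04 and -0.11, beside -0.0039 and 0.014 over all genes. Ache, the acetylcholinesterase, had 2168, 2355 and 2189 normalized counts in CTL-WT and 1556, 1690.2 and 1734 in SD-WT, and 2465, 2119 and 2185 in CTL-AcPbKO and 1784, 1851 and 1921 in SD-AcPbKO. It fell without overlap in both (-0.43 ± 0.067 and -0.28 ± 0.072, limma adjusted p = 0.00181 and 0.0207). Bche, the other cholinesterase, also fell (-0.99 ± 0.17 and -0.49 ± 0.15, adjusted p = 0.00303 and 0.0396). Maoa, the monoamine oxidase that degrades serotonin and noradrenaline, fell as well (-0.35 ± 0.072 and -0.45 ± 0.074, adjusted p = 0.00679 and 0.0033).

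Slc22a3, a low-affinity monoamine transporter chosen here after its values were seen, had 74.9, 81.9 and 52.7 normalized counts in CTL-WT and 35.1, 25.8 and 34.9 in SD-WT, and 127, 151 and 115 in CTL-AcPbKO and 71.4, 54.5 and 93.2 in SD-AcPbKO. It fell without overlap in both genotypes (-1.09 ± 0.23 and -0.85 ± 0.22, limma adjusted p = 0.00793 and 0.0225). Summed oligodendrocyte markers ranged from 88648 to 140870 normalized counts in WT libraries and from 55687 to 127889 in AcPb-/- libraries, and overlapped between SD and controls in both, although 5 of the 7 fell in WT and 1 of the 7 in AcPb-/- mice. Of the 5 dopamine receptor genes, Drd1 fell in WT (-0.61 ± 0.16, adjusted p = 0.0181), with the highest count in CTL-WT 01, where the striatal markers were highest. Also named after their values were seen, low-level genes past the threshold were Dbh, which makes noradrenaline, in WT (-1.53 ± 0.28, adjusted p = 0.00408), and Tph1, a serotonin-synthesizing enzyme (1.91 ± 0.53, 0.0285), and Drd4 (-1.17 ± 0.35, 0.0359) in AcPb-/- mice. The pathway lists were not recomputed with the Xist term or without those libraries.

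**Figure D5:**
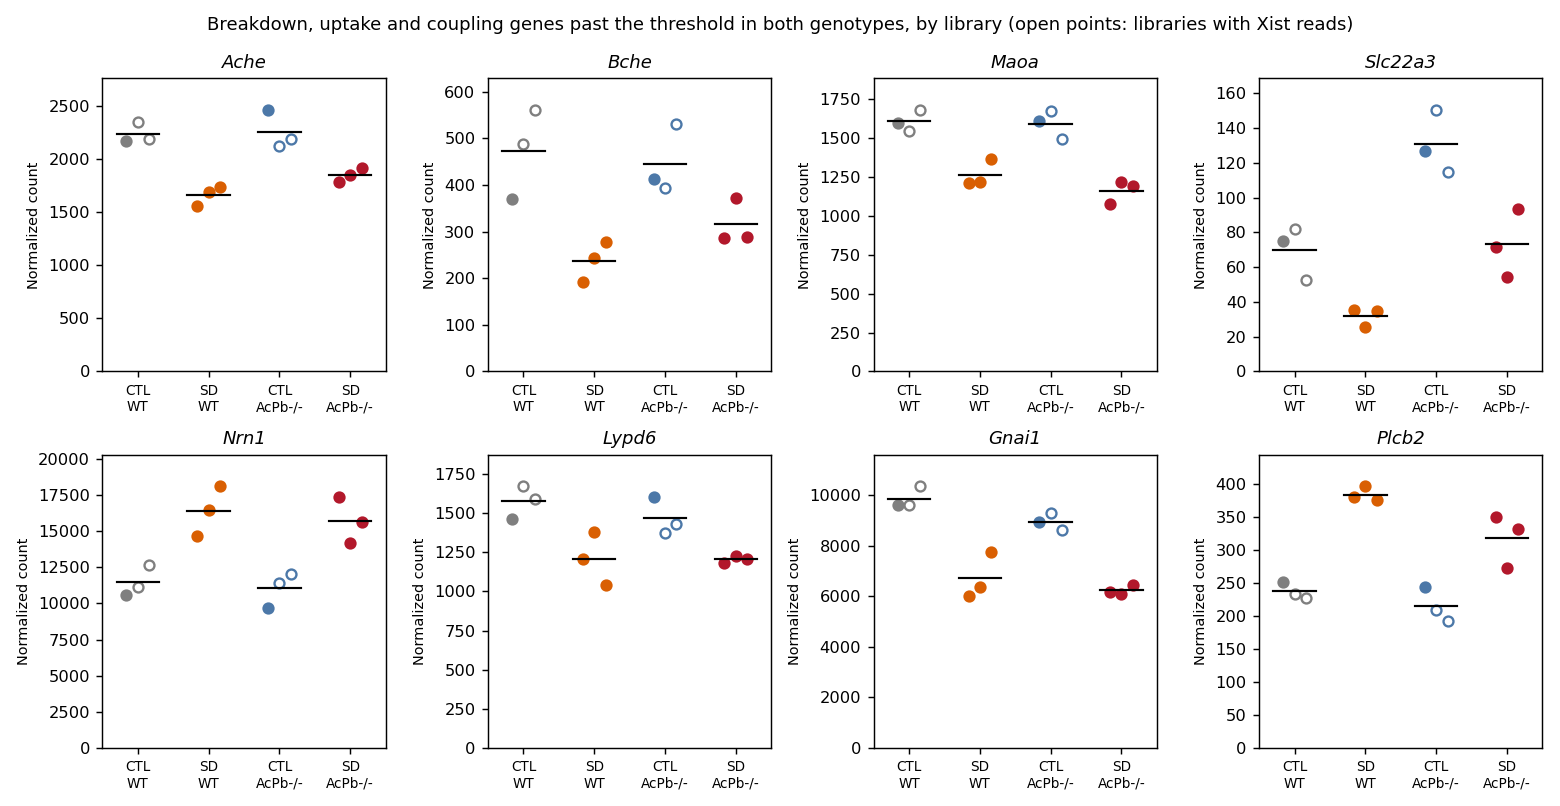
Normalized counts by library of 4 genes of transmitter breakdown and uptake (Ache, Bche, Maoa, Slc22a3) and 4 genes of receptor assembly and coupling (Nrn1, Lypd6, Gnai1, Plcb2), all past the threshold in both genotypes, with open points for libraries with Xist reads and lines for group means. Ache, Bche, Maoa, Slc22a3, Lypd6 and Gnai1 are lower and Nrn1 and Plcb2 higher in the SD libraries of both genotypes.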

How the data were processed

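Total RNA of somatosensory cortex was sequenced after library preparation with the TruSeq Stranded mRNA kit. The authors aligned reads to mm10 with HISAT2 (2.2.1) and divided counts per gene by size factors with DESeq2 (1.31.16, per the submitters' processing notes); sources name HTSeq or featureCounts as the counter, and the strand setting and annotation are not given in the sources used here. The deposited signal is these normalized counts, in 5 tables of 24421 genes, each normalized on its own. The tables' log2 fold changes, their standard errors, Wald statistics (a score) and p-values, deposited by the authors, were not used. Undoing the size factors gave whole reads (tolerance 0.01) for 100.0% of 732630 values. A further 4 labelled samples were not analysed here.

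The fit was limma (3.58.1, R 4.3.3) with a variance trend on log2(normalized count + 1), over all genes detected in the comparison by 1 or more reads, with Benjamini-Hochberg adjustment over all of them and a threshold of 0.05. Each pair comparison used its own table (4 residual degrees of freedom). The interaction and the printed levels used 12 libraries normalized together by median-of-ratios size factors (8 residual degrees of freedom). The fits with the Xist term, without the Xist libraries and with the replicate block covered all 4 groups at once on the same values. Fold changes on this scale understate those of low genes. edgeR (4.0.16) and DESeq2 (1.42.0) on the recovered reads were alternatives; the plan named edgeR only for raw counts. Counting intervals are 95% exact intervals and cover counting error only. Levels per kb used union exon lengths of GENCODE models of GRCm38, the build of mm10, and promoters came from RefSeq (GRCm38.p6). Overlap counts are exon bases shared with another gene model.

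Named with values in every library are receptors past the threshold in any comparison, and with fold changes those with a mean of at least 100; of each pathway list at most 4 genes past the threshold with such a mean, largest change first. Members and lists were chosen with earlier results of these data known. The values of 1 receptor gene, included in the counts, are not reported here.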

Additional observations from a re-analysis of the deposited data

How the results depend on the processing

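The SD counts of 14 receptors in WT and 15 in AcPb-/- mice were recomputed with other pseudocounts (0.1 and 10), a mean of at least 10, median centring, edgeR, DESeq2, thinning to 26504840 reads, 1 fit of all 4 groups, and each library left out. Thinning left 9 in WT mice, while 22.7% of all genes passed. A term for the 4 libraries with Xist reads was added to the 1 fit of all 4 groups. It left 8 in WT (5 of the 14) and 10 in AcPb-/- mice (9 of the 15). Of all genes, 19.3% and 24.7% passed with this term, against 24.3% and 30.9% in that fit without it. Leaving those libraries out, an alternative chosen after seeing the data, left 0 and 1, with 3.28% and 10% of all genes; the lone control of each genotype is then assumed to vary like the other groups. Without 1 library the counts ranged from 7 to 15 in WT and from 7 to 16 in AcPb-/- mice. The shares of all genes in these fits ranged from 13.3% to 30.7% and from 16.6% to 26.6%. WT counts moved by over 1.5 times without CTL-WT 02 (8), CTL-WT 03 (9), SD-WT 01 (8) or SD-WT 02 (7), and AcPb-/- counts without CTL-AcPbKO 04 (7) or 05 (8) or SD-AcPbKO 02 (7), 03 (9) or 04 (7). All of these fits have fewer samples, fewer reads or another term.

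Deviations from group means had correlations of -0.426 to 0.231 between libraries with the same replicate number. Between libraries with different numbers they were -0.407 to 0.484. The control means mix libraries with and without Xist reads, so this check cannot decide whether the numbers pair libraries. A fit with the replicate number as a block left 6 WT calls and 7 AcPb-/- calls, while 21.4% and 21.8% of all genes passed. The values of 3 results with no call changed sign. Htr1f in WT became -0.038 with the Xist term and ranged from -0.17 to 0.19 with 1 library left out. Chrnb4 in AcPb-/- mice became 0.064 in DESeq2 and 0.084 in edgeR and ranged from -0.72 to 0.32. Htr3b in AcPb-/- mice became -0.33 thinned, -0.26 with the Xist term, -0.075 with the block and -0.66 without the Xist libraries, and ranged from -0.39 to 0.54. The cause was not tested. The 2 genotype comparisons and the interaction kept 0 receptor calls in every alternative run. Over all genes, DESeq2 called 93 genes between genotypes in controls and 97 after SD, against 4 and 3 in limma, and edgeR 8 and 9. DESeq2 gave no adjusted p for Adra2b, Chrna10, Chrnb4 and Htr3b, whose reads are few.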
